A study of Mus musculus with 7 samples.

Results

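CTCF ChIP-exo 5.0 was examined at the 3 mouse genes of the amyloid precursor protein family, App, Aplp1 and Aplp2. The members were the deposited peaks, and the pairs of peaks, whose centres lay inside one of these genes or within 20 kb of it. They numbered 534 of 2603994 peaks and 47 of 197259 peak pairs over 7 libraries. Of the 534 peaks, 290 lay at App, 76 at Aplp1 and 168 at Aplp2. ChIP-exo trims immunoprecipitated DNA with an exonuclease that halts where a crosslinked protein blocks it, and each halt read by sequencing is called a tag here.

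The libraries came from wildtype mice, which the study describes as males of 16 weeks. Brain, liver, lung and kidney gave 1 library apiece, and these are called the organs here. A titration of liver added 1 library per input, labelled 2,700,000, 270,000 and 27,000 cells. The paper made chromatin from 100 mg of tissue and does not state how much went into each organ library. It estimated the liver cell numbers from the wet weight of tissue. Liver cells thus stand for amounts of liver tissue and not for counted cells. As every condition had 1 library, differences could not be set against replicates and carry no p-value. Brackets hold exact 95% Poisson intervals, or for ratios exact binomial ones, for counting error alone. In the labels the antibody is CTCF in every library, although the protocol for extraction mentions IgG. They give 0.3% formaldehyde where the study's methods give 1%. No library without CTCF antibody was analysed here, and CTCF tags hold no marker gene levels against which the labelled organs could be checked.

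App encodes the amyloid precursor protein, a single-pass membrane protein that secretases cut to release the amyloid-beta peptide found in the plaques of Alzheimer's disease. Aplp1 and Aplp2 encode its paralogs, which share its general architecture but lack the amyloid-beta stretch. Aplp1 is made mainly in neurons, whereas App and Aplp2 are made in most tissues. CTCF is a zinc finger protein that binds insulators, domain borders and a number of promoters, and the App promoter is a long known example of CTCF binding close to a transcription start, through an element named APBbeta.

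All 3 genes lie on the reverse strand. App (gene ID 11820) spans chr16:84952666-85175255 in mm10, and the start used here, from the RefSeq promoter table of GRCm38.p6, is position 85173707, which lies inside the annotated limit of the gene. Aplp1 (gene ID 11803) spans chr7:30434980-30445582 and Aplp2 (gene ID 11804) chr9:31149557-31211848. With 20 kb on each side the regions measured 262.59, 50.603 and 102.292 kb. The region of Aplp1 also holds neighbouring genes, so tags in its flanks need not belong to Aplp1.

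The 250 bases before each start are shown because the App promoter peaks lie in them, and those of the paralogs for comparison. They are RefSeq sequence of GRCm38.p6, read 5′ to 3′ on the reverse strand, from chr16:85173708-85173957, chr7:30445583-30445832 and chr9:31211849-31212098. Bases are counted from 0 at the start. Capitals mark each match, on either strand, to CCNNN directly before AGNNGGC, a short form of the CTCF recognition sequence, with at most 1 of its 7 named letters different.
App: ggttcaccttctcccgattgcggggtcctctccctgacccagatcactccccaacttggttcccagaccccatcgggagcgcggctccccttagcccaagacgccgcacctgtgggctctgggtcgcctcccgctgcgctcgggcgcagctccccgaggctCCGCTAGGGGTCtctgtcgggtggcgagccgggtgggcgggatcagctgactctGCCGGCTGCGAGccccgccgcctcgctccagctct
Aplp1: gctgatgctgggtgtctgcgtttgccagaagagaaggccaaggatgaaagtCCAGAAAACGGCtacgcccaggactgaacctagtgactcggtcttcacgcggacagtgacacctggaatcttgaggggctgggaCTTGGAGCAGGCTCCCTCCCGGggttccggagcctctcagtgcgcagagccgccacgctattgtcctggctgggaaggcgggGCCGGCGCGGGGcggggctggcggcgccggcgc
Aplp2: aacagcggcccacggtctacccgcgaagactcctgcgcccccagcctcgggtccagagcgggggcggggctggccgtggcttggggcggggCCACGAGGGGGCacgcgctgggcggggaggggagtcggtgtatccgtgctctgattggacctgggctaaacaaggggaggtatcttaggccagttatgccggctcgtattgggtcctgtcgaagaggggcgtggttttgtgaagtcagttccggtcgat

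The App sequence held a match with 1 letter different at bases -89 to -78, and another read on the opposite strand at -35 to -24. The Aplp2 sequence held a match in all 7 letters at -159 to -148. Aplp1 held only matches with 1 letter different. In the 300 bp promoter windows of RefSeq, which run from 250 bases before the start to 50 after it, a full match was found in 8.61% of 32851 promoters and a match with at most 1 letter different in 65.0%. The shorter AGNNGGC, which is contained in the longer form, was found in 59.8%, so these letters alone do not set the family apart. The matches are a description of the sequence and not called sites. G and C made up 70.8% of the 250 bases of App, 66.0% of Aplp1 and 66.4% of Aplp2.

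CTCF tags were found at the App promoter in brain, lung and the larger inputs of liver cells. The promoter site, the 200 bp of chr16:85173695-85173894 centred 88 bp before the start, held 11 tags in brain, 19 in lung, 49 in 2,700,000 liver cells and 3 in 270,000 liver cells. Kidney, liver and 27,000 liver cells had no peak listed there. Scaled to 1,000,000 listed tags per library, which are called normalised tags here, the site held 10.7 (5.32 to 19.1) in brain, 27.5 (16.5 to 42.9) in lung, 7.43 (5.50 to 9.83) in 2,700,000 liver cells and 4.68 (0.966 to 13.7) in 270,000. Lung stood above both brain and the 2,700,000 cells, while the intervals of brain and the liver cells overlapped. This holds on totals of all listed tags. Peaks whose tags all started at 1 position held 74.1% of them in brain, 80.7% in lung and 15.2% in 2,700,000 cells. The site held no such peak. Scaled to the other tags alone, brain and lung would stand higher relative to the 2,700,000 cells, by an amount not computed here. The ratio of brain to lung was 0.388 (0.167 to 0.857), that of lung to 2,700,000 cells 3.70 (2.06 to 6.39) and that of brain to 2,700,000 cells 1.43 (0.672 to 2.79). In a window of 100 bp lung held 11 tags and brain 9, and their ratio of 0.548 (0.201 to 1.45) was within counting error, whereas lung over 2,700,000 cells was still 2.83 (1.30 to 5.67).

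The files list no peak under 2 tags, so that a library with no peak is not a library with no tag. At the share of the 2,700,000 cells, kidney would have held 12.2 tags at the site, brain 7.68, lung 5.14, 270,000 cells 4.76, liver 3.92 and 27,000 cells 0.265. The value of 27,000 cells was below the lowest count listed, so that the site was unlikely to be listed at that depth. Those of kidney and liver were above it on totals of all listed tags. However, the lowest count holds for each peak, while these values are sums over the window. In the 2,700,000 cells the 49 tags lay in 9 peaks, the highest of 13 tags. A library with a value above the lowest count could therefore still list no peak. The missing peaks of kidney and liver thus do not show an absence of CTCF. Peaks whose tags all started at 1 position took 82.2% of all tags in kidney, which had no peak at the site, but also 80.7% in lung and 74.1% in brain, which had peaks there. The share was 57.5% in liver and 15.2% in the 2,700,000 cells. No tag at the site lay in such a peak. Scaled to the other tags alone, the values for kidney and liver would therefore be lower. Whether they would still be above the lowest count was not computed.

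**Figure D1:**
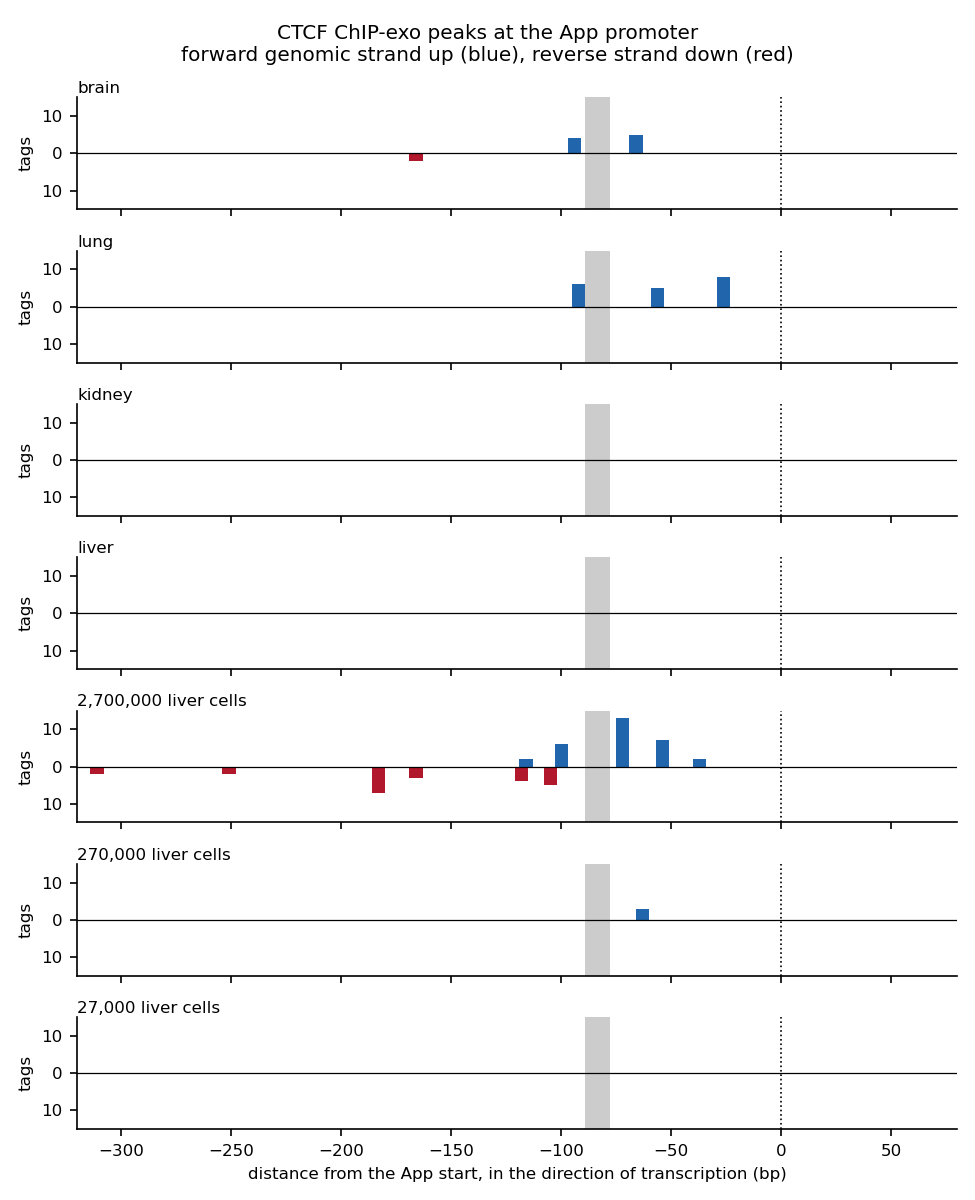
Peaks around the App start (dotted line), 1 panel per library, with the distance from the start in bp on the horizontal axis. Bars give the tags of each peak, up for the forward and down for the reverse genomic strand, and the grey band is the motif match at -89 to -78. In 2,700,000 liver cells the highest bar, of 13 tags, lies beside the band, and kidney, liver and 27,000 cells have no bar.

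The App promoter peaks are described by their centres, relative to the motif match at 85173785 to 85173796, where left and right mean lower and higher coordinates. In 2,700,000 liver cells the highest peak was a forward one of 13 tags, 6 bp to the left of the match, and the nearest reverse peak, of 5 tags, lay 16 bp to its right. These formed a pair with 33 bp between its peaks. That library held 5 forward and 4 reverse peaks in the site, with 30 and 19 tags. Brain had forward peaks of 5 and 4 tags, 12 bp left and 5 bp right of the match, and a reverse peak of 2 tags 77 bp to the right. The same reverse position, 85173873, held 3 tags in the 2,700,000 cells. Lung had 3 forward peaks, of 8 and 5 tags 52 and 22 bp left of the match and of 6 tags 3 bp right of it, and no reverse peak. Its peak of 8 tags, at 85173733, lay inside the App match on the opposite strand, 85173731 to 85173742, and a peak of 2 tags in the 2,700,000 cells lay 2 bp from that match. The 270,000 cells had a single forward peak of 3 tags, 15 bp left of the match. None of the 16 peaks in the site was of the kind whose tags all start at 1 position.

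A promoter with a peak was not rare in these libraries. Over the 32851 promoter windows, a peak was listed in 8.66% in brain, 5.79% in lung, 9.51% in kidney, 4.09% in liver, 22.8% in 2,700,000, 5.9% in 270,000 and 0.253% in 27,000 liver cells. The App promoter was among them in 4 libraries, Aplp2 in 1 and Aplp1 in 0. The height at App was less common in brain, lung and 2,700,000 cells. Only 1.45% of promoters held at least 11 tags in brain, 0.819% at least 19 in lung and 2.09% at least 49 in 2,700,000 cells. In 270,000 cells 3.76% held at least 3, but 3 was also the median of the promoters with a peak there.

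The paralogs' promoters were near empty. Aplp2 held 5 tags in 2,700,000 liver cells, in 1 forward peak at 31212042, and 7.36% of promoters held at least as many. This peak lay 35 bp to the right of the full motif match, not on its left as the main App peak did. Aplp1 had no peak in its promoter window in any library, and its nearest listed peaks were 5 tags in brain, all at 1 position, 1024 bp after the start and 2 tags in 2,700,000 cells at -1260 bp.

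Another App site lay 1184 bp after the start, at chr16:85172423-85172622. It had 9 tags in brain, 5 in lung, 2 in kidney, 0 in liver, 8 in 2,700,000, 3 in 270,000 and 0 in 27,000 liver cells. Here brain, at 8.71 normalised tags (3.98 to 16.5), stood above the 2,700,000 cells at 1.21 (0.524 to 2.39). At the promoter their intervals overlapped on the same scale. Whether the 2 sites differ in this way without peaks of 1 position was not tested. The brain tags formed a pair, 5 forward and 4 reverse, with 51 bp between the peaks. The lung tags all started at 1 position.

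The App site with most tags over all libraries lay at the other end of the gene, and 132 of its 152 tags came from the 2,700,000 cells. Merging the pairs of all libraries within 100 bp gave 21 sites, of which 8 were at App, 3 at Aplp1 and 10 at Aplp2. A run of 3 neighbouring App sites, whose windows overlap, covered chr16:84955293-84955736, from 2627 to 3070 bp before the far end of the gene as annotated. Counting each peak once, they had 10 tags in brain, 11 in lung, 8 in kidney, 4 in liver, 175 in 2,700,000 liver cells and 0 in 270,000 and 27,000. This was 26.5 normalised tags (22.8 to 30.8) in the 2,700,000 cells, where the promoter site held 7.43. In lung the order of the values was the other way, with 15.9 (7.94 to 28.5) at the far end and 27.5 at the promoter, though the intervals overlap. The run measures 444 bp and the promoter window 200 bp. All 11 lung tags of the run lay in peaks whose tags all started at 1 position, whereas none of the lung tags at the promoter did. Brain held 10 tags at the far end and 11 at the promoter, and the 270,000 cells 0 and 3.

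The strongest of these 3 sites, centred 218070 bp after the start, was the only one of the 21 that had tags in all 4 organs. It had 10 tags in brain, 4 in lung, 2 in kidney, 4 in liver and 132 in 2,700,000 cells. In the 2,700,000 cells a forward peak of 16 tags and a reverse peak of 34 tags lay 37 bp apart, and brain had a pair at the same place, of 3 and 3 tags, 49 bp apart. The lung and kidney tags, and 2 of the 4 liver tags, all started at 1 position. The site's presence in all 4 organs thus rested on such peaks in lung and kidney.

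Between these ends App had 3 further sites, 111848, 125716 and 142384 bp after the start, with 4, 17 and 4 tags in 2,700,000 liver cells and none listed elsewhere. Of the 478 tags that the App region held in that library, 36.6% lay in the group of sites at the far end and 10.3% at the promoter. Sites were mostly defined by pairs of that library, so these shares describe it only.

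**Figure D2:**
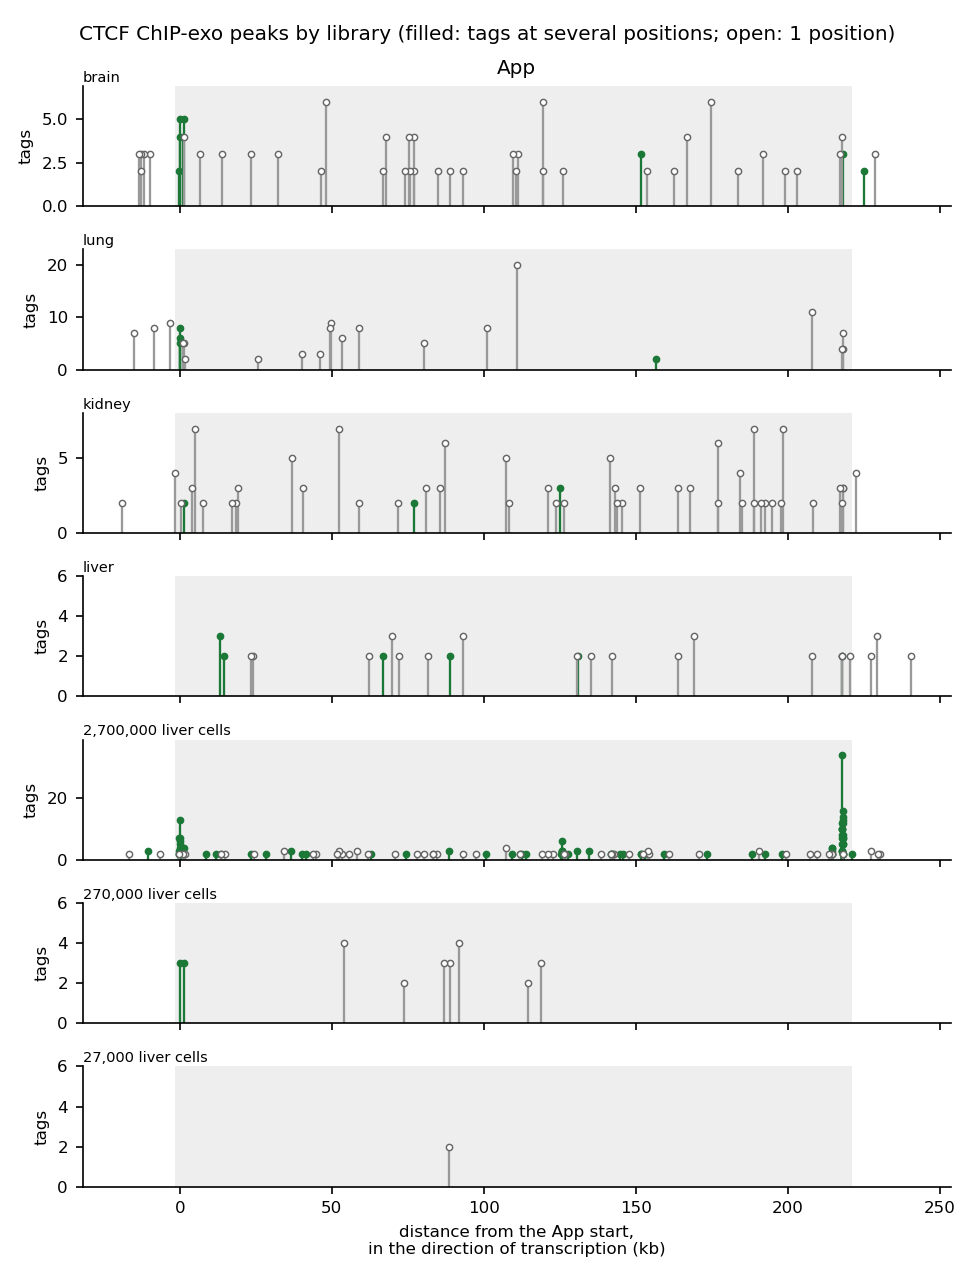
Every listed peak of the App region, 1 panel per library, by distance from the start in kb (horizontal) and tags (vertical, with its own scale in each panel). Filled points are peaks with tags at several positions, open points those with all tags at 1 position, and the grey band is the gene. In 2,700,000 liver cells the peaks rise at both ends, up to 34 tags at 218 kb, whereas the tallest lung peak, of 20 tags, is an open point inside the gene.

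In Aplp1, the strongest site lay inside the gene, 4753 bp after the start, at chr7:30440729-30440928. It held 2 tags in brain, 6 in lung, none in kidney or liver, 75 in 2,700,000, 5 in 270,000 and 0 in 27,000 liver cells. In normalised tags, the 2,700,000 cells held 11.4 (8.95 to 14.3) and the 270,000 cells 7.80 (2.53 to 18.2), with overlapping intervals. The highest pair had a forward peak of 17 tags and a reverse peak of 15 tags, 59 bp apart. The 270,000 cells had a reverse peak of 5 tags 8 bp from that reverse peak, and the brain peak lay on the forward strand at its very position. The lung tags all started at 1 position.

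The other Aplp1 sites lay beyond the gene, 13514 and 20496 bp after the start. The nearer held 8 tags in brain and 16 in 2,700,000 cells, and the farther 16 in 2,700,000 cells only. In brain the nearer site was a pair of 6 and 2 tags, 45 bp apart, with all tags of each peak at 1 position. Its forward peak at 30432033 lay 1 bp from the forward peak of 6 tags, at 30432032, in the 2,700,000 cells.

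Aplp2, like App, held its largest group of sites shortly before the far end of the gene. The 3 overlapping windows covered chr9:31150977-31151522, from 1420 to 1965 bp before the end. They had 7 tags in brain, 11 in lung, 4 in kidney, 0 in liver, 149 in 2,700,000, 2 in 270,000 and 0 in 27,000 liver cells. This made 22.6 normalised tags (19.1 to 26.5) in the 2,700,000 cells, 15.9 (7.94 to 28.5) in lung and 6.78 (2.72 to 14.0) in brain. The intervals of lung and the 2,700,000 cells overlapped, and brain lay below the latter on this scale. Peaks with all tags at 1 position held 2 of the 7 brain tags and 3 of the 149. They held 74.1% of all listed tags in brain and 15.2% in the 2,700,000 cells. Whether brain stays below without such peaks was not tested.

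The central site, 60574 bp after the start, had the largest count, with 119 tags in 2,700,000 cells, 11 in lung, 5 in brain and 2 in 270,000. Its main pair was a forward peak of 37 tags and a reverse peak of 13 tags, 59 bp apart. The brain's 5 tags formed a reverse peak at 31151333, 1 bp from a reverse peak of 16 tags in the 2,700,000 cells. Unlike at the App promoter, the lung peaks here, of 9 and 2 tags, were on the reverse strand only, and their tags started at several positions. Kidney had no tag listed in this window, and its 4 tags, in the neighbouring window at 60771 bp, all started at 1 position.

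Inside Aplp2 other sites held tags mostly in the 2,700,000 cells. The site 46208 bp after the start held 58 tags in that library and none elsewhere. The site at 32340 bp held 49 tags there and 2 in brain, with a reverse peak of 22 tags. The remaining 5 held between 0 and 25 tags in that library. Among them, the site 14467 bp after the start was a brain pair of 2 and 2 tags with no tag listed in any other library, and both peaks had all tags at 1 position.

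**Figure D3:**
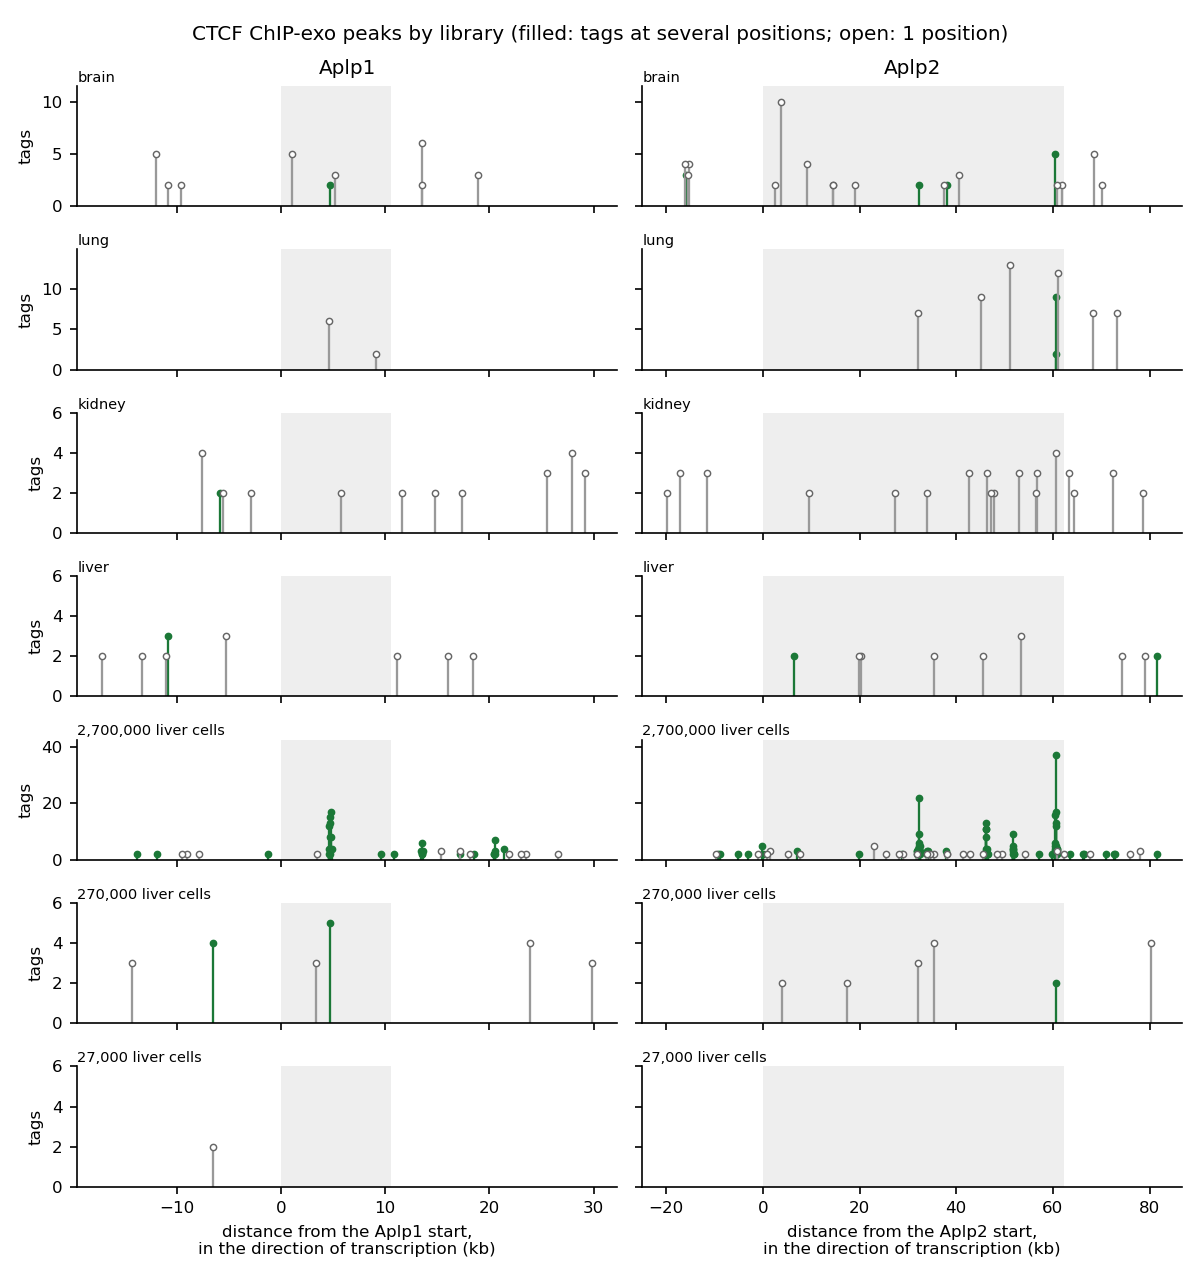
Every listed peak of the Aplp1 (left) and Aplp2 (right) regions, 1 row per library, by distance from the start in kb (horizontal) and tags (vertical, with its own scale in each row). Filled points have tags at several positions, open points at 1, and the grey band is the gene. In 2,700,000 liver cells filled points stand in groups at 4.8 kb of Aplp1 and at 32, 46 and 61 kb of Aplp2, and most organ peaks are open points.

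Listed tags were found at 20 of the 21 sites in 2,700,000 liver cells, 11 in brain, 7 in lung, 4 in kidney, 1 in liver, 5 in 270,000 and 0 in 27,000 cells. Since 42 of the 47 pairs came from the 2,700,000 cells and 5 from brain, the list of sites is drawn from these libraries and could not show a site listed only in another one. A total of 8 sites held no listed tag in any organ library. The liver library, of the same organ as the titration, held tags at 1 of the 21, with 527038 tags in all against 6592538.

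**Figure D4:**
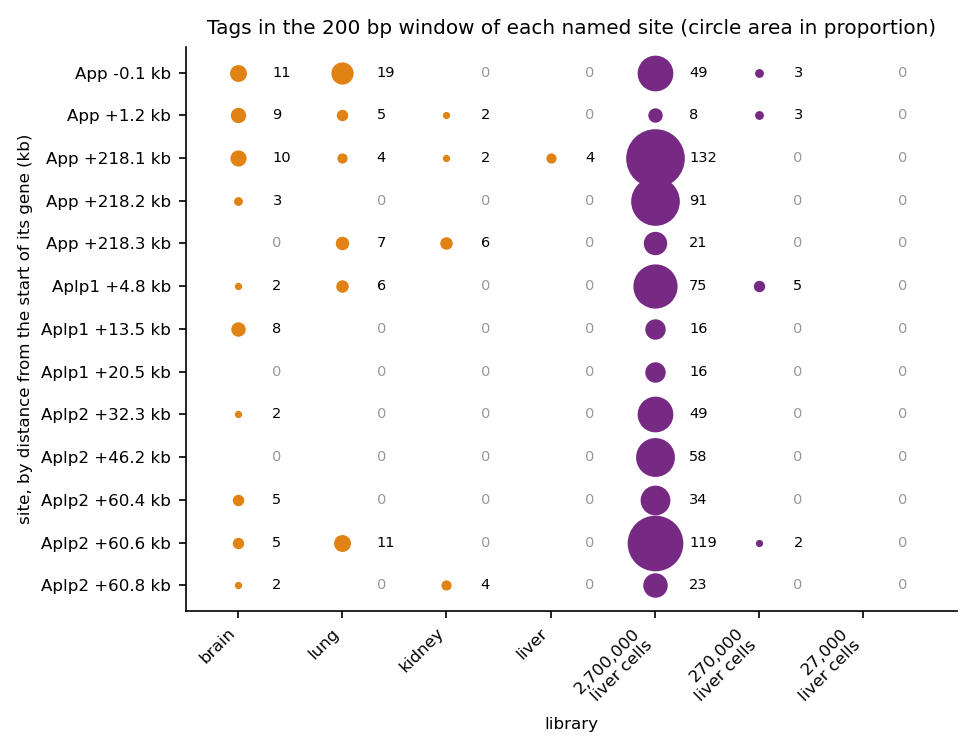
Tags in the 200 bp window of 13 named sites (rows, by gene and distance from its start in kb) in each library (columns). Circle area is in proportion to the tags, printed beside it, in orange for organs and purple for liver cells. The counts run up to 132 in 2,700,000 liver cells and up to 19 elsewhere, at the App promoter in lung.

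Peak pairs were listed at the family in brain and in 2,700,000 liver cells only. App held 3 pairs in brain and 17 in the 2,700,000 cells, Aplp1 held 1 and 6, and Aplp2 held 1 and 19. Among peaks of at least 3 tags the 2,700,000 cells had 9, 2 and 11 pairs, and brain none at Aplp1 and Aplp2. Over 34614 genes with 20 kb on each side, at least 1 pair was found for 32.7% in brain, 18.5% in lung, 14.9% in kidney, 5.23% in liver, 80.6% in 2,700,000, 16.3% in 270,000 and 0.026% in 27,000 cells. All 3 family members thus had a pair in a library where 80.6% of genes did. The median distance between the peaks of a pair in the 2,700,000 cells was 44 bp at App, 64.5 bp at Aplp1 and 55 bp at Aplp2, against 48 bp over that whole library.

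Summed over the whole region, App had 146 tags in brain, 155 in lung, 155 in kidney, 55 in liver, 478 in 2,700,000, 27 in 270,000 and 2 in 27,000 liver cells. This made 141 normalised tags (119 to 166) in brain, 224 (190 to 262) in lung, 94.8 (80.4 to 111) in kidney, 104 (78.6 to 136) in liver, 72.5 (66.2 to 79.3) in 2,700,000 and 42.1 (27.8 to 61.3) in 270,000 cells. Lung was highest and brain next, in a ratio of brain to lung of 0.631 (0.500 to 0.796). Without peaks whose tags all started at 1 position it was 0.735 (0.409 to 1.35), so that this order was no longer beyond counting error. Kidney and liver, which stood next to each other in the order, did not differ beyond counting error, with a ratio of kidney to liver of 0.908 (0.664 to 1.26).

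The Aplp1 region had 30 tags in brain, 8 in lung, 28 in kidney, 18 in liver, 159 in 2,700,000, 22 in 270,000 and 2 in 27,000 liver cells. Brain, with 29.0 normalised tags (19.6 to 41.5), did not differ beyond counting error from the 2,700,000 cells, with 24.1 (20.5 to 28.2), in a ratio of 1.20 (0.787 to 1.79). This ratio was 0.548 (0.43 to 0.69) with a flank of 50 kb. Lung held the lowest value among the libraries plotted, 11.6 (4.99 to 22.8), with an interval that overlaps that of kidney. The Aplp2 region had 61 tags in brain, 66 in lung, 46 in kidney, 19 in liver, 435 in 2,700,000, 17 in 270,000 and 0 in 27,000 cells. Lung was highest there too, with 95.4 normalised tags (73.8 to 121), against 66.0 (59.9 to 72.5) in the 2,700,000 cells and 59.1 (45.2 to 75.9) in brain. The ratio of lung to 2,700,000 cells was 1.45 (1.10 to 1.88), and 1.24 (0.612 to 2.24) without peaks of 1 position. That of brain to lung was 0.619 (0.430 to 0.890) and without them 0.543 (0.219 to 1.36), so that both differences then lay within counting error.

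**Figure D5:**
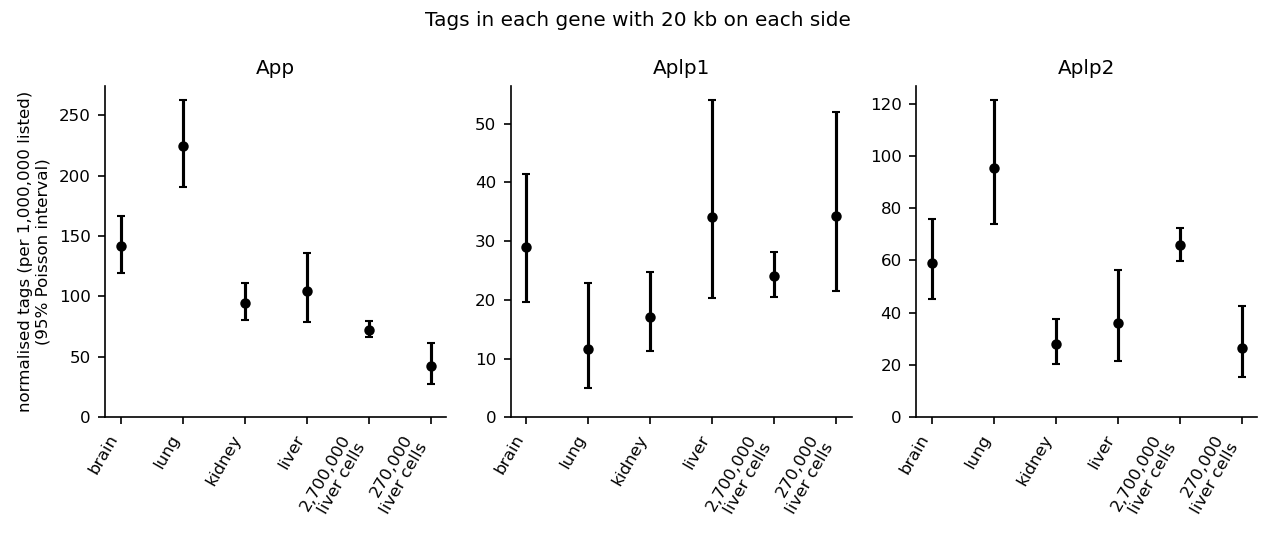
Normalised tags (per 1,000,000 listed tags) in each gene with 20 kb on each side (vertical axis, from 0, with its own scale per gene), for 6 libraries (horizontal axis). Points are single libraries and bars are 95% Poisson intervals. Lung is highest at App (224) and Aplp2 (95.4) and lowest at Aplp1 (11.6).

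In these sums, peaks with all tags at 1 position made up 81.6% of the family's peaks in brain, 82.4% in lung, 94.9% in kidney, 78.6% in liver, 32.7% in 2,700,000 and 76.2% in 270,000 liver cells, where the whole libraries gave 83.2%, 83.1%, 91.5%, 76.3%, 33.1% and 76.0%. The highest App peak in lung, 20 tags 110911 bp after the start, and the highest Aplp2 peak in brain, 10 tags 3803 bp after the start, were both of this kind. Without such peaks, and scaled to the tags left, App was 1.78 times as high in brain as in 2,700,000 cells (1.19 to 2.57), against 1.95 (1.61 to 2.35) with them. For lung over 2,700,000 cells the App ratio was 2.42 (1.48 to 3.75) without and 3.09 (2.56 to 3.71) with them. For kidney over 2,700,000 cells it turned from 1.31 (1.08 to 1.57) to 0.369 (0.147 to 0.768).

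Per kb of region, the 2,700,000 cells held 0.276 normalised tags at App, 0.477 at Aplp1 and 0.645 at Aplp2, where the median gene held 0.382. The value of App was thus above 40.7% of gene regions, that of Aplp1 above 56.7% and that of Aplp2 above 66.3%. In lung, App held 0.854 and was above 73.9% of regions. By density over the region, none of the 3 genes stood at an extreme in the 2,700,000 cells.

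The genes whose regions varied most like App over the 7 libraries were Arsb, with a Pearson correlation of log2 normalised tags of 0.987, Slco3a1 with 0.975 and Cntln with 0.936. For Aplp1 they were Ephx2 with 0.966, Neu4 with 0.949 and Gm39601 with 0.949. For Aplp2 they were Gm33248, Catsperd and LOC115487722, all at 0.999. A correlation above 0.9 was found for 0.0686% of genes with App, 0.172% with Aplp1 and 46.9% with Aplp2. The points share each library's depth, and Aplp2, like the median gene, had no tag in 27,000 cells. App and Aplp1 each held 1 peak of 2 tags there, with both tags at 1 position, which made 56.2 normalised tags. These points enter their correlations, and how far the shares and the genes named depend on them was not tested.

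Among other genes of the pathway, promoter windows were found for 23 of 30 listed genes, with 38 promoters. A peak lay in the promoter of 7 of the 23 genes in brain, 4 in lung, 8 in kidney, 4 in liver, 10 in 2,700,000, 3 in 270,000 and 0 in 27,000 liver cells. Of the 38 promoters, 18.4% held a peak in brain, 10.5% in lung, 21.1% in kidney, 13.2% in liver and 26.3% in 2,700,000 cells, where all promoters gave 8.66%, 5.79%, 9.51%, 4.09% and 22.8%. Some of the 38 windows belong to 1 gene and can share peaks.

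Of the 23 genes, 7 were adaptors, proteins that bind the cytoplasmic tail of the precursor. A promoter peak in at least 3 libraries was found for 6 of the 23 genes, of which 3 were adaptors. The share over all genes is not given here, and Apbb2 and Apba2 have 2 promoters each. The count therefore does not set the adaptors apart. Nae1, the APP-binding subunit of the enzyme that activates NEDD8, held 96 tags in 2,700,000 cells, 14 in lung, 12 in brain and 2 in kidney, in the first more than App. Apbb2, a Fe65 family adaptor, held 4 in brain, 17 in lung, 8 in kidney, 2 in liver, 31 in 2,700,000 and 3 in 270,000 cells, and was the only listed gene with a peak in 6 libraries. Apba2, a Mint adaptor, held 17 tags in 2,700,000 cells and 5 in brain. The other adaptors were low or empty, with sums over all libraries of 7 tags at Apbb1 and 6 at Apba3 and no peak at Apba1 and Dab1.

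Of the enzymes that cut the precursor, the alpha-secretase Adam17 held 15 promoter tags in 2,700,000 cells and 3 in brain. Psen2, a catalytic subunit of gamma-secretase, held 7 in kidney and 2 in each of brain and 2,700,000 cells. Apoe, the lipid carrier tied to amyloid clearance, held 6 in 2,700,000 cells, 4 in brain and 3 in kidney. A total of 9 listed genes had no promoter peak in any library, among them the gamma-secretase subunit Aph1a, the amyloid-beta degrading enzyme Ide and the sorting receptor Sorl1. Most of all promoters had no peak in each library, and the share of all genes without one in any library is not given here. The 9 are thus not a result about the pathway.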

How the data were processed

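The 7 mouse libraries were CTCF ChIP-exo 5.0, 1 per condition, grouped by their labels. The authors sequenced 2 ends of 40 bp, kept uniquely aligned reads without PCR duplicates, and deposited strand-specific peaks of 21 bp. Each peak has its raw tag count and the spread (SD, bp) of its tags. The lowest count listed was 2. The submitters' processing notes name BWA 0.7.9a, bcl2fastq 2.16 and mm10. The paper's alignment text names the yeast and human genomes.

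The listed counts came to 6592538, 640635 and 35594 tags for the liver cells from most to fewest, and for the organs to 527038 (liver), 691479 (lung), 1032833 (brain) and 1635582 (kidney). Normalised tags are counts per 1,000,000 of these totals. Pairs joined a forward peak to the reverse peak that lay 10 to 80 bp downstream, each peak used once, taken by falling sum of tags. Pairs of all libraries within 100 bp were merged into sites, whose 200 bp windows can overlap. Exact Poisson, exact binomial and Wilson intervals (95%) cover counting error only. No test was possible.

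Named sites were those within 1 kb of a start, the 5 with most tags per gene, and those with tags in all 4 organs. Likeness to a member used log2 of normalised tags plus 1, over non-overlapping regions of at least 100 tags. Pathway genes named had a promoter peak in at least 3 libraries, with the window of most tags standing for a gene of several, and the genes without a peak that are named were picked after the values were seen. The members and lists were chosen with earlier results of these data known. Pairing was tested on simulated data. Alternatives varied the window, flank, pair distance, lowest count, peaks of 1 position and denominator. The scripts ran in Python 3.11.15 with scipy 1.17.1, pandas 2.3.3, numpy 2.4.6 and matplotlib 3.10.9.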

Additional observations from a re-analysis of the deposited data

How the results depend on the processing

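No paired analysis was possible because each condition had 1 library, which also left no replicate to leave out. The tags at the App promoter site stayed within their counting interval in 27 of 28 recomputations. The exception was lung, with 11 tags in a 100 bp window in place of 19, where its difference from brain was within counting error. However, many of the 28 had little or no room to move. Kidney, liver and the smallest liver cell input held no listed tag there under any setting. Counting a peak of 1 position as 1 tag could change no library's count, as the site held no such peak. The library totals behind the normalised values do hold such peaks, and those values were not recomputed in this way. The count of 27 is therefore not a measure of stability. With only peaks of at least 3 tags, the pairs in 2,700,000 liver cells were 9 at App, 2 at Aplp1 and 11 at Aplp2, in place of 17, 6 and 19, and with a 50 kb flank Aplp1 had 25. The brain pairs of Aplp1 and Aplp2 were lost with peaks of at least 3 tags and without peaks of 1 position.

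The ratio of brain to 2,700,000 cells in normalised tags stayed above 1 at App under all 6 alternatives. At Aplp1 it went from 1.20 to 0.548 with a 50 kb flank and to 0.309 (0.0371 to 1.14) without peaks of 1 position. At Aplp2 it went from 0.895 to 0.672 (0.344 to 1.19) without them. That alternative was chosen after seeing the data. The wider flank takes in more neighbouring genes, and the cause of the other shifts was not tested.

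The share of promoters with a peak depended on the settings. Without peaks of 1 position it was 3.19% in brain, 2.03% in lung, 1.8% in kidney, 1.67% in liver, and 15.1%, 2.02% and 0.0183% in liver cells from most to fewest. With 1000 bp on each side of the start it was 30.3%, 18.4%, 37.3%, 17.9%, 64.7%, 20.7% and 1.13% in that order. With at least 3 tags it was 0.886% in liver, and 9.96%, 3.54% and 0.158% in the liver cells. The App promoter had a peak in the same 4 libraries without peaks of 1 position and with at least 3 tags. With 1000 bp on each side kidney joined them, with 2 tags.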
